A study of Mus musculus with 10 samples.

Results

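Genes for vesicle coats, membrane sorting and autophagy were looked up among the transcription start sites (TSSs) that carried ARID2 in mouse spermatocytes. The set was taken with earlier results of these data known, and its members are defined by symbol, as the protein-coding genes named Vps, Snx, Trappc, Atg, Exoc, Cog, the COPI subunits named Cop, and the numbered Sec genes. The rule took 148 of the 21774 protein-coding genes of the mouse RefSeq annotation, and the rule itself uses no measured value. Of these, 140 have a role in membrane trafficking or autophagy and the other 8 share only the symbol.

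ARID2 is a subunit specific to PBAF, a SWI/SNF chromatin remodeler, and BRG1 is the ATPase of that remodeler. Their positions were measured by CUT&RUN, in which a nuclease held on chromatin by an antibody releases the bound fragments for sequencing. All 10 samples were spermatogenic cells of CD1 mice, enriched for pachytene, diplotene and metaphase spermatocytes, with 2 ARID2 samples, 2 BRG1 samples and 1 control without IgG at each of P28 and P28.5. The cell mix was not the same at the 2 ages. The paper reports more round spermatids, which also hold ARID2, and fewer leptotene and zygotene spermatocytes at P28.5 than at P28. Every mouse, those behind the controls included, had received WIN 18,446, which blocks retinoic acid synthesis, by gavage at 100 µg per g of body weight from P1 to P10, and then 1 dose of 10 µl retinoic acid at 10 µg per µl at P11, so that germ cells entered spermatogenesis together. The cells were taken by digestion and filtration of tubules rather than by a sort, and the deposited lists hold no expression values with which the labelled cell type could be checked.

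The values described here are the 2 deposited lists of cluster-1 (Cl-1), the RefSeq TSSs that k-means clustering grouped as enriched for ARID2, 1 list for each age. Each row is a position in the mm10 genome and a gene symbol, with no signal, count or strand. The P28 list had 11553 rows and the P28.5 list 8514 rows. The paper reports that most of the ARID2-enriched TSSs at P28 overlapped called ARID2 peaks, but only a minority of those at P28.5. It also reports far more called peaks at P28 than at P28.5, so these overlaps do not compare the support for the 2 lists. The peaks were not used here. Replicates had been averaged before clustering, so the lists give no spread between animals or samples and no depth behind a single TSS. The paper names a signal track for each ARID2 and BRG1 sample, and these tracks were not used here. Genes were scored by name, for which a single row with the symbol was enough, and the 95% Wilson intervals given for shares cover counting over genes only, which are not replicates of the experiment.

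Coat proteins bend membrane into vesicles and choose their cargo. COPII carries cargo from the endoplasmic reticulum (ER) to the Golgi and COPI carries it back, while tethers such as TRAPP, COG, the exocyst, GARP and HOPS catch vesicles at their target membrane. ESCRT, retromer and sorting nexins sort cargo at endosomes, and the ATG proteins build the autophagosome. In the testis the acrosome grows from Golgi-derived vesicles, and work in mice and flies has tied several of these genes to acrosome formation and to the division of spermatocytes.

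Cl-1 held 38 of the 148 genes at P28, or 25.7% (19.3% to 33.3%), against 16.8% of all protein-coding genes. At P28.5 it held 33, or 22.3% (16.3% to 29.7%), against 11.6% of all protein-coding genes. The genes listed at both ages numbered 26, where 8.48% of all protein-coding genes were in both lists. A further 12 were listed at P28 alone, against a background of 8.33%, and 7 at P28.5 alone, against 3.13%. The remaining 103 were in neither list. Of the P28 genes 68.4% were also listed at P28.5, compared with 50.5% over all protein-coding genes. By own-name positions within 2000 bp of a 5′ end, 25 of 35 P28 genes were also listed at P28.5, against 1790 of 2982 over all protein-coding genes. By name, 78.8% of the P28.5 genes were also listed at P28, compared with 73.1%.

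Shares differed with the strand of the gene over the 148 genes as a whole. Among the 73 plus-strand genes, the P28 list held 29 (39.7%) and the P28.5 list 27 (37.0%), beside 26.0% and 20.4% of all plus-strand protein-coding genes. Among the 75 minus-strand genes, the P28 list held 9 (12.0%) and the P28.5 list 6 (8.00%), beside 7.61% and 2.86%. The lists therefore held fewer minus-strand genes over the whole genome as well as here. A minus-strand gene absent from the lists cannot be told apart from one whose start was not entered in them.

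The trafficking genes had CpG-rich promoters. Within 500 bp of the gene's outermost annotated 5′ end the median CpG ratio, observed over expected, was 0.722 in the 148 genes. Over all protein-coding genes it was 0.516. The ratio was taken at that end even where another start was listed. Snx29 had a ratio of 0.714 at chr16:11322861, but the 180 bases at its listed start chr16:11405648 held 0 CpG. Snx13 had a ratio of 0.379, but the 180 bases at its listed start held 31 CpG. None of the 20 genes in the 2 poorest of 5 CpG groups was listed at either age, where the background was 6.54% and 2.02% in the poorest group and 9.64% and 3.05% in the next. In the middle group 10 of 28 genes were in the P28 list and 5 in the P28.5 list, beside 14.2% and 6.89%. In the second richest 13 of 56 were in each list, beside 24.9% and 19.1%, and in the richest 15 of 44 were, beside 28.8% and 27.0%.

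Plus-strand genes were set beside all plus-strand genes of the same CpG content. Among plus-strand genes of the richest group, the P28 list held 10 of 19 (52.6%) and the P28.5 list 11 (57.9%), against 46.2% and 47.0% of all such genes. Among plus-strand genes of the second richest group, 12 of 31 (38.7%) and 13 (41.9%) were listed, against 39.6% and 33.3%. The Wilson intervals of these shares include their background, so that no difference from plus-strand genes of the same CpG content was resolved there.

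In the middle CpG group 7 of the 12 plus-strand genes were listed at P28, or 58.3% (32.0% to 80.7%), against 21.4% of all such genes, and 3 at P28.5, or 25.0% (8.89% to 53.2%), against 12.1%. The 7 genes were Copg1, Vps18, Exoc4, Vps35l, Snx13, Atg4c and Sec11c. Of these, Atg4c was listed at P28 only at a position 120482 bp from its start, and Sec11c shares only the symbol. For Atg4c and Snx13 the CpG ratio was taken at a 5′ end over 500 bp from any listed position of the gene.

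On the minus strand the shares lay above the background in some CpG groups and below it in another. In the richest group 5 of 25 genes (interval 8.86% to 39.1%) were listed at P28 and 4 (6.40% to 34.7%) at P28.5, against 11.3% and 6.94%. In the second richest, 1 of 25 (0.710% to 19.5%) was listed at P28 and 0 (up to 13.3%) at P28.5, against 9.87% and 4.56%. In the middle group 3 of 16, or 18.8% (6.59% to 43.0%), and 2, or 12.5% (3.50% to 36.0%), were listed, against 6.97% and 1.65%. All of these intervals but the last include their background.

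**Figure D1:**
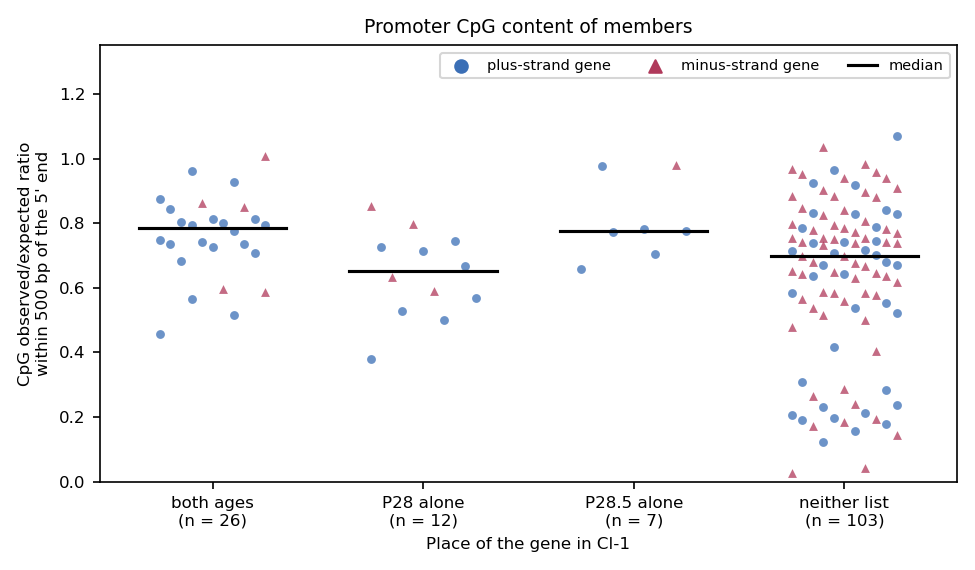
CpG ratio, observed over expected, within 500 bp of the gene's outermost annotated 5′ end (y axis) for the 148 genes, by place in Cl-1 (x axis). Circles are plus-strand genes, triangles are minus-strand genes and bars are medians. The medians were 0.785 for both ages, 0.651 for P28 alone, 0.774 for P28.5 alone and 0.698 for neither list. The lowest ratio of a listed gene was 0.379, at an end that is not always the listed start.

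Most listed positions lay on the genes' own starts, which follows from lists made of RefSeq TSSs and says nothing of where ARID2 lay. The number of rows or positions of a gene likewise counts its listed TSSs and is not a measure of ARID2 signal. At P28 the 38 genes had 105 rows at 63 distinct positions, and at P28.5 the 33 genes had 91 rows at 57 positions. The median distance to the gene's nearest annotated 5′ end was 3 bp at P28 and 1 bp at P28.5. Within 100 bp of such an end lay 55 of the 63 positions and 56 of the 57. In the annotation 47 of the P28 positions and 46 of the P28.5 positions fell in a 5′ UTR, and 10 and 7 lay upstream of the gene. Of all positions 40 were listed at both ages, 23 only in the P28 list and 17 only in the P28.5 list.

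The strands differed in where the positions fell. Of the plus-strand genes' positions, 29 of 53 at P28 and 28 of 51 at P28.5 equalled an annotated 5′ end of the gene to the base. Of the minus-strand genes' positions, 0 of 10 and 0 of 6 did. Some positions within 2000 bp of the gene's start also lay within 50 bp of another gene's 5′ end on the other strand. For minus-strand genes these were 5 of 8 at P28 and 5 of 6 at P28.5. For plus-strand genes they were 3 of 51 and 2 of 51. The matching counts over all protein-coding genes were not made, so these strand differences cannot be read as particular to the trafficking genes.

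**Figure D2:**
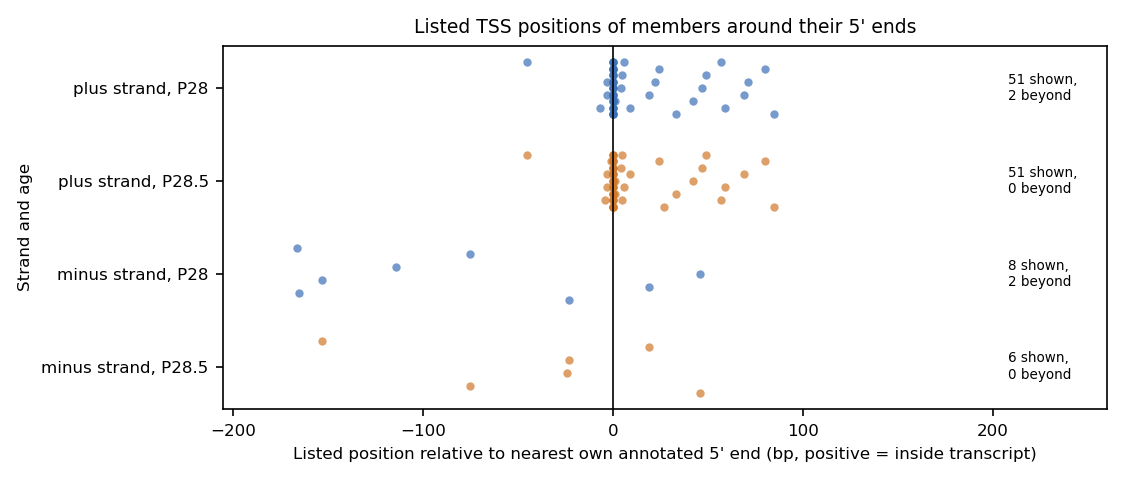
Distance in bp of each distinct listed position from the nearest annotated 5′ end of its own gene (x axis, positive inside the transcript) by strand and age (rows). Plus-strand positions cluster at 0, whereas the 8 minus-strand positions shown at P28 and 6 at P28.5 lie to either side of it; 4 positions at P28 and 0 at P28.5 fall beyond the axis.

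The promoters of 5 listed genes are printed because each has a listed position at its RefSeq start and holds, within the stretch printed, the E-box CACGTG, the core of the element bound by TFEB, which drives genes of lysosomes and autophagy. Sequences are from RefSeq on GRCm38.p6 (mm10), 150 bases before to 30 bases from the start of the RefSeq promoter entry, read 5′ to 3′ on the plus strand, on which all 5 genes lie. Capitals mark CACGTG and, where present, its longer form GTCACGTG on either strand.
Atg3, chr16:45158679-45158858: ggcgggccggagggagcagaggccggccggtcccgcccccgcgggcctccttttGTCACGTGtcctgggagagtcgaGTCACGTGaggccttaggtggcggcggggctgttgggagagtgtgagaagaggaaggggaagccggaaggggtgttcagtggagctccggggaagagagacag
Sec23ip, chr7:128744720-128744899: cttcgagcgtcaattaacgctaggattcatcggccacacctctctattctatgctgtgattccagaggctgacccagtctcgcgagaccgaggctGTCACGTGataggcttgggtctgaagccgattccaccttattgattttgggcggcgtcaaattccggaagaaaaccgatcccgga
Vps16, chr2:130424170-130424349: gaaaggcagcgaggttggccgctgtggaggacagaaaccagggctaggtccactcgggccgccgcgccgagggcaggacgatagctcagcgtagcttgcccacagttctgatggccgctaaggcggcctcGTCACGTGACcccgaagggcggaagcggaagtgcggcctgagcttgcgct
Exoc1, chr5:76529157-76529336: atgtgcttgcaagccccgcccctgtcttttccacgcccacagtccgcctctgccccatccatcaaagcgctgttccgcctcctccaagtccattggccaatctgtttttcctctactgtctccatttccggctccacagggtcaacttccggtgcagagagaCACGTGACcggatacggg
Atg5, chr10:44268189-44268368: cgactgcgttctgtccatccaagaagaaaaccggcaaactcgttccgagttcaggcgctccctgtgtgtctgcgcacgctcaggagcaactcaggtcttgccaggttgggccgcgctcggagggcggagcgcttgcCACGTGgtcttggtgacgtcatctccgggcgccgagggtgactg

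Snx5 also held CACGTG in this stretch, 50 bp before its RefSeq start, and is not printed because its nearest listed position was 284 bp from that start. Atg3, the E2-like enzyme that joins ATG8 proteins to lipid, held E-boxes 94 and 71 bp before the start, both in the longer form. The single E-box lay 53 bp before the start in Sec23ip, 18 bp before it in Vps16, 14 bp before it in Atg5 and 12 bp after it in Exoc1. Over the window from 250 bp before to 50 bp after the start, searched on both strands, CACGTG occurred in 8 of the 37 listed genes with a RefSeq promoter (21.6%), in 8 of 80 genes in neither list (10.0%), in 10.9% of all protein-coding genes in Cl-1 and in 7.90% of all protein-coding genes. The other listed genes with it were Snx5, Trappc5 and Trappc10. The window was that of a single RefSeq promoter entry for each gene, whether or not that start was listed. Trappc10, for example, was listed only 24529 bp from its start.

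The longer form GTCACGTG, which contains CACGTG, occurred in 4 of the 37 listed genes (10.8%), namely Atg3, Exoc1, Sec23ip and Vps16. It occurred in 5 of the 80 in neither list (6.25%), namely Atg7, Atg14, Vps26a, Vps33a and Vps50, in 4.60% of all Cl-1 genes and in 2.89% of all protein-coding genes. Genes of this kind therefore carried the element both inside and outside Cl-1. These matches describe letters in a window and no binding was measured.

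Of 9 motifs searched, CCGGAAG, the core bound by ETS factors, stood in the promoters of 15 of the 37 listed genes (40.5%). It stood in 22.5% of those of genes in neither list, beside 19.1% of all Cl-1 genes and 11.9% of all genes. The listed genes with it were Atg101, Atg3, Copb2, Exoc1, Exoc5, Sec14l1, Sec23ip, Sec24c, Snx17, Snx29, Trappc10, Trappc6a, Vps18, Vps52 and Vps53. Not all of these promoters were at a listed start. Trappc10 and Vps53 were listed only 24529 and 26071 bp from their starts, and the 180 bases at the listed start of Snx29 held 0 motif matches. The GC box GGGCGG stood in 67.6% of the promoters of listed genes and 67.5% of those of unlisted genes. The background was 64.7% of all Cl-1 genes and 46.3% of all genes. The CCAAT box stood in the promoters of 2 of the 20 genes listed at both ages (10.0%) and of 11 of all 37 listed genes (29.7%). It stood in 32.5% of those in neither list, 42.1% of all Cl-1 genes and 39.0% of all genes.

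The remaining motifs were rare among the listed genes. TATAAA was found in Trappc5 and Vps37c (5.41%), beside 6.25% in neither list, 7.62% of all Cl-1 genes and 13.3% of all genes. AAGATGGCG, the YY1 element, was found in Exoc4, Exoc7 and Snx13 (8.11%), beside 3.75%, 3.33% and 1.94% in the same order. TGACGTCA, the cyclic AMP response element, was found in Atg5 (2.70%), beside 2.50%, 4.13% and 2.34%. GCGCATGCG, the NRF1 element, was found in Sec24c (2.70%), beside 3.75%, 5.04% and 2.41%.

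The COPI coat had 4 of its 8 genes in Cl-1. Copb2, for the beta-prime subunit that reads dilysine retrieval signals, was listed at both ages at 1 position, chr9:98563731, its own 5′ end and 120 bp from the minus-strand gene 4930579K19Rik. Copg1, for a gamma subunit, was listed at both ages at 3 positions, whereas its paralog Copg2 was listed at P28 alone, with 6 rows at 2 positions 165 and 166 bp upstream of its start. Copa, for the alpha subunit that partners beta-prime in the outer layer, was listed at P28.5 alone at chr1:172082529, its own 5′ end and 71 bp from that of Ncstn. Copb1, Cope, Copz1 and Copz2 were in neither list. The coat thus had 3 genes (37.5%) listed at each age with different members, beside 16.8% of all protein-coding genes at P28 and 11.6% at P28.5.

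COPII and the ER exit site had the same 3 of 15 genes (20.0%) in Cl-1 at both ages, all on the plus strand. Over all protein-coding genes 16.8% were listed at P28, 11.6% at P28.5 and 8.48% at both. Sec24c, for a subunit that selects cargo, had 7 rows at 4 positions at each age, from chr14:20674285 to 20674434, and they were the same positions at P28 and P28.5. Sec23b, for the subunit that activates the SAR1 GTPase, had 5 rows at 2 positions at each age. Sec23ip, which binds SEC23 at the ER exit site, had 3 positions at its start at both ages and a 4th at P28, 109903 bp downstream at the 5′ end of Gm32884. The 9 minus-strand genes of the group were absent by name at both ages. The unlisted genes were Sec13, Sec16a, Sec16b, Sec22a, Sec22b, Sec22c, Sec23a, Sec24a, Sec24b, Sec24d, Sec31a and Sec31b, so that of 9 coat subunits 2 were listed.

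TRAPP, the tether and RAB activator of the early secretory pathway, had 5 of 15 genes in the P28 list and 3 in the P28.5 list. Of all protein-coding genes 16.8% and 11.6% were listed by name. By any position within 500 bp of a start TRAPP had 6 and 5, a rule by which 16.2% and 14.3% of all protein-coding genes were listed. Trappc1, Trappc5 and Trappc6a, for core subunits, were listed at both ages with 1 row each at the same position, which was the gene's own 5′ end for Trappc1 and Trappc5 and 59 bp from it for Trappc6a. Trappc2l was listed at P28 alone at its 5′ end. Trappc10, for a subunit specific to TRAPPII, was listed at P28 alone with 8 rows at 1 position 24529 bp upstream of its start, so that its start itself was not listed. Trappc2, Trappc3, Trappc3l, Trappc4, Trappc6b, Trappc8, Trappc9, Trappc11, Trappc12 and Trappc13 were in neither list.

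COG, the tether for traffic within the Golgi, had 0 of its 8 genes in either list by name, which with 8 genes allows a share of up to 32.4% (Wilson). This interval includes the background of 16.8% at P28 and 11.6% at P28.5, so no difference from it was resolved. Cog1 to Cog8 were evenly spread over the strands, 4 on each, and lay in the 2 CpG-richest groups. The start of Cog8 was nevertheless listed at both ages, 140 bp away, under the name of Nip7.

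The exocyst, which tethers vesicles to the plasma membrane, had partly different genes in the 2 lists, a difference that was not tested. Exoc5 was listed at both, 19 bp inside its start and 14 bp from that of the plus-strand gene Ap5m1. Exoc4 and Exoc7 were listed at P28 alone, and Exoc1 and Exoc8 at P28.5 alone. Exoc4 had 3 rows at 2 positions, with 2 of the rows at its own 5′ end, 17 bp from that of the minus-strand pseudogene Gm1401. The position of Exoc7, 114 bp upstream of that gene, equalled the 5′ end of Gm26730. Exoc1 had 4 rows at chr5:76529307 and chr5:76529311, both annotated 5′ ends. Exoc8 was listed 24 bp upstream of its start and 42 bp from Sprtn, and at P28 a position named for Sprtn lay 181 bp away, so that for Exoc8 the difference in age rested on the name. Exoc2, Exoc3, Exoc6, Exoc3l, Exoc3l2, Exoc3l4 and Exoc6b were in neither list. Of the 8 subunit genes Exoc1 to Exoc8, 3 were listed at each age, beside 16.8% of all protein-coding genes at P28 and 11.6% at P28.5.

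GARP and EARP return endosomal vesicles to the Golgi and to recycling endosomes and share 3 subunits. Vps52 had 5 rows at the same 4 positions at both ages, from chr17:33955785 to 33956090, with the ribosomal protein gene Rps18 starting 120 bp from the nearest. Vps53 was listed at P28 alone at 1 position, 26071 bp inside its transcript in an intron, and not at its start. Vps50, Vps51 and Vps54 were in neither list. Vps54 is the gene mutated in the wobbler mouse, whose sperm lack a normal acrosome, and the nearest listed position was 147437 bp away at both ages.

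HOPS and CORVET tether late and early endosomes and share a core. Vps16, a core subunit, had 8 rows at 2 positions at each age, next to the start of Pced1a on the other strand. Vps18, another core subunit, had 1 row at P28 alone, at its own 5′ end. Vps8, a subunit specific to CORVET, had 6 rows at 4 positions at P28.5 alone, from chr16:21423118 to 21423257. Vps11, Vps33a, Vps33b, Vps39 and Vps41 were in neither list, and among these Vps39 and Vps41 encode the subunits specific to HOPS.

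ESCRT sorts ubiquitinated cargo and cuts membrane necks, at the end of cytokinesis among other places. The same 4 of 9 genes were listed at both ages, where 8.48% of all protein-coding genes were, and none at 1 age alone. Vps28, of ESCRT-I, had 2 rows at 1 position 153 bp upstream of its start. Vps37a and Vps37c, alternative ESCRT-I subunits, had 1 position each at P28.5, and Vps37c had 3 at P28. Vps4a, for the ATPase that takes ESCRT-III apart, had 1 position 57 bp inside its start at each age. Vps25, Vps36, Vps37b, Vps37d and Vps4b were in neither list.

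Retromer recycles cargo from endosomes, and retriever does so for other receptors with VPS29 in common. Vps29 had 2 positions at both ages and Vps26b 1, which lay 23 bp upstream of Vps26b and 48 bp from Ncapd3, a condensin gene. Vps35, for the scaffold subunit, was in neither list by name, although a position named for Orc6 lay 115 bp from its start at both ages. Counted by any position within 500 bp, 3 of the 4 retromer genes had a listed start at both ages, where 10.5% of all protein-coding genes did, and Vps26a was the exception, with its nearest listed positions 71665 bp from it at P28 and 433828 bp at P28.5. Vps35l, the scaffold of retriever, was listed at P28 alone at 2 positions under the older symbol 9030624J02Rik, and Vps26c was in neither list.

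Sorting nexins bind phosphoinositides through their PX domain. Of 30 genes, the P28 list held 8 (26.7%) and the P28.5 list 4 (13.3%), beside 16.8% and 11.6% of all protein-coding genes, and these 4 were among the 8. Both counts were the same by any listed position within 500 bp of a start and by own-name positions within 2000 bp. Listed at both ages were Snx2 and Snx5, whose proteins bend the endosomal tubule with retromer, Snx3, a cargo adaptor for retromer, and Snx32, a relative of Snx5. Listed at P28 alone were Snx10, Snx13, Snx17 and Snx29, all on the plus strand and all at an own 5′ end. Snx17, an adaptor for retriever, had 2 positions. The position of Snx5 lay 46 bp inside its transcript and 48 bp from the start of Mgme1, and that of Snx32 lay 75 bp upstream of it and 1 bp from Gm31166, so the gene at these positions cannot be told apart from its neighbour.

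The other 22 sorting nexins were in neither list. They were Snx1, Snx4, Snx6, Snx7, Snx8, Snx9, Snx11, Snx12, Snx14, Snx15, Snx16, Snx18, Snx19, Snx20, Snx21, Snx22, Snx24, Snx25, Snx27, Snx30, Snx31 and Snx33. Of them 16 were on the minus strand, and Snx1 alone had a listed position within 2000 bp, 1725 bp away.

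**Figure D3:**
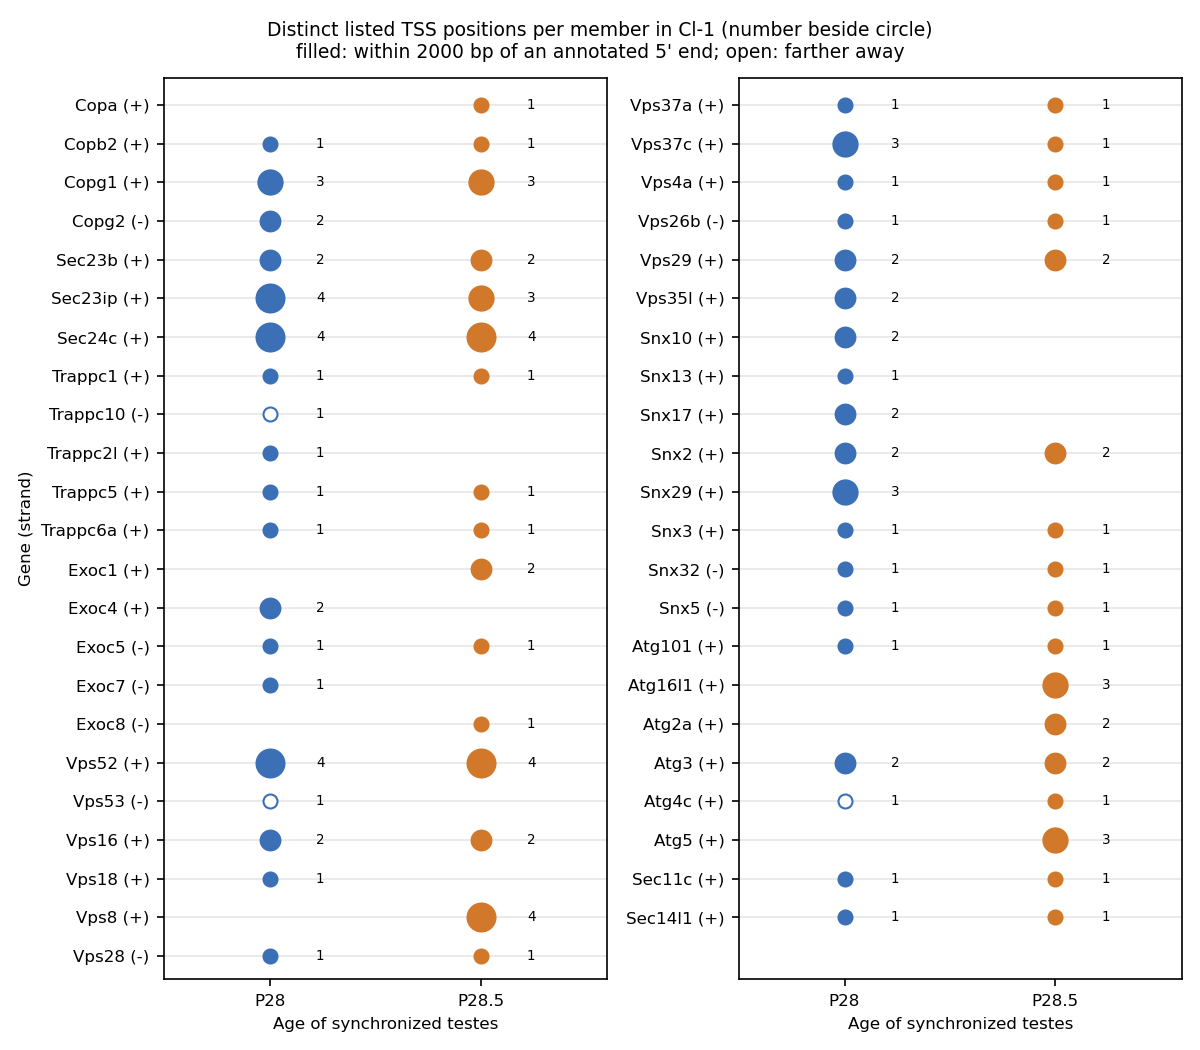
The 45 genes in Cl-1 at either age, with strand (y axis), and the number of distinct listed positions of each at P28 and P28.5 (x axis), printed beside the circle; open circles mark genes whose positions all lay over 2000 bp from an annotated 5′ end. Sec23ip, Sec24c, Vps52 and Vps8 reached 4 positions, and the open circles are Atg4c, Trappc10 and Vps53 at P28. The number counts listed TSSs and is not a measure of signal.

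Among the groups of the 148 genes counted by name, autophagy alone had more genes listed at P28.5 than at P28. Of 18 ATG genes, the P28 list held 3 (16.7%) and the P28.5 list 6 (33.3%), and the 3 were among the 6. Of all protein-coding genes 16.8% and 11.6% were listed by name. By any listed position within 500 bp of a start, which adds genes named for a neighbour, the counts were 5 and 7, where 16.2% and 14.3% of all protein-coding genes were listed. By own-name positions within 2000 bp they were 2 and 6, where 13.7% and 11.4% were. The difference between the ages was not tested. All 6 were among the 10 on the plus strand, and the 8 on the minus strand were absent by name at both ages. Over all protein-coding genes the P28.5 list was the shorter one, and of genes listed at 1 age 27.3% were at P28.5, compared with 7 of 19 (36.8%) in the trafficking genes as a whole.

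The 3 autophagy genes at both ages were Atg101, Atg3 and Atg4c. Atg101, a partner of ATG13 in the ULK1 kinase complex that starts autophagy, had 1 row at its 5′ end, chr15:101284301, at each age. Atg3 had the same 2 positions at each age, its start and 45 bp upstream of it. Atg4c, a protease that trims ATG8 proteins, was listed at its own 5′ end, chr4:99194147, at P28.5. At P28 its 3 rows were at chr4:99314629, 120482 bp downstream, which is the 5′ end of the noncoding gene Gm35379, so that by its own start Atg4c belonged to P28.5 alone.

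The 3 autophagy genes at P28.5 alone were Atg5, Atg16l1 and Atg2a. ATG5 and ATG16L1 are partners in the complex that directs ATG8 proteins to the growing membrane, and ATG2A carries lipid into it. Atg5 had 5 rows at 3 positions, chr10:44268339, 44268344 and 44268366. Atg16l1 had 5 rows at 3 positions, chr1:87756006, 87756007 and 87756011. Atg2a had 3 rows at 2 positions, chr19:6241664 and 6241668. At P28 none of these 3 genes had a row under any distance rule tried.

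Of the 11 genes for conjugation of ATG8 and ATG12, the P28 list held 2 and the P28.5 list 4, beside 16.8% and 11.6% of all protein-coding genes. Atg7, the E1-like enzyme at the head of both conjugation routes, which is needed for acrosome formation in mice, was in neither list, with its nearest listed positions 370698 bp from its start at P28 and 873607 bp at P28.5. Atg10, Atg12, Atg13, Atg14, Atg16l2, Atg2b, Atg4a, Atg4b, Atg4d, Atg9a and Atg9b were also in neither list by name.

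The last groups were small, with 4, 3 and 7 genes. VPS13 and the other Vps genes, at 0 by name, allow shares of up to 49.0% and 56.1% (Wilson). These intervals include the background of 16.8% at P28 and 11.6% at P28.5. The VPS13 lipid carriers Vps13a, Vps13b, Vps13c and Vps13d were all in neither list, and the nearest listed position to Vps13b, which is needed for the acrosome in mice, was 434707 bp from its start at P28 and 1288181 bp at P28.5. Vps45, Vps72 and Vps9d1 were in neither list, of which Vps72 encodes a histone chaperone and not a trafficking protein. Sec11c, for a catalytic subunit of the signal peptidase, and Sec14l1, of the SEC14-like lipid-binding family, were each listed at both ages at the same position. They made up 2 of the 7 genes of their group (28.6%) at each age, where 8.48% of all protein-coding genes were listed at both. Sec11a, Sec14l2, Sec14l3, Sec14l4 and Sec14l5 were in neither list.

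**Figure D4:**
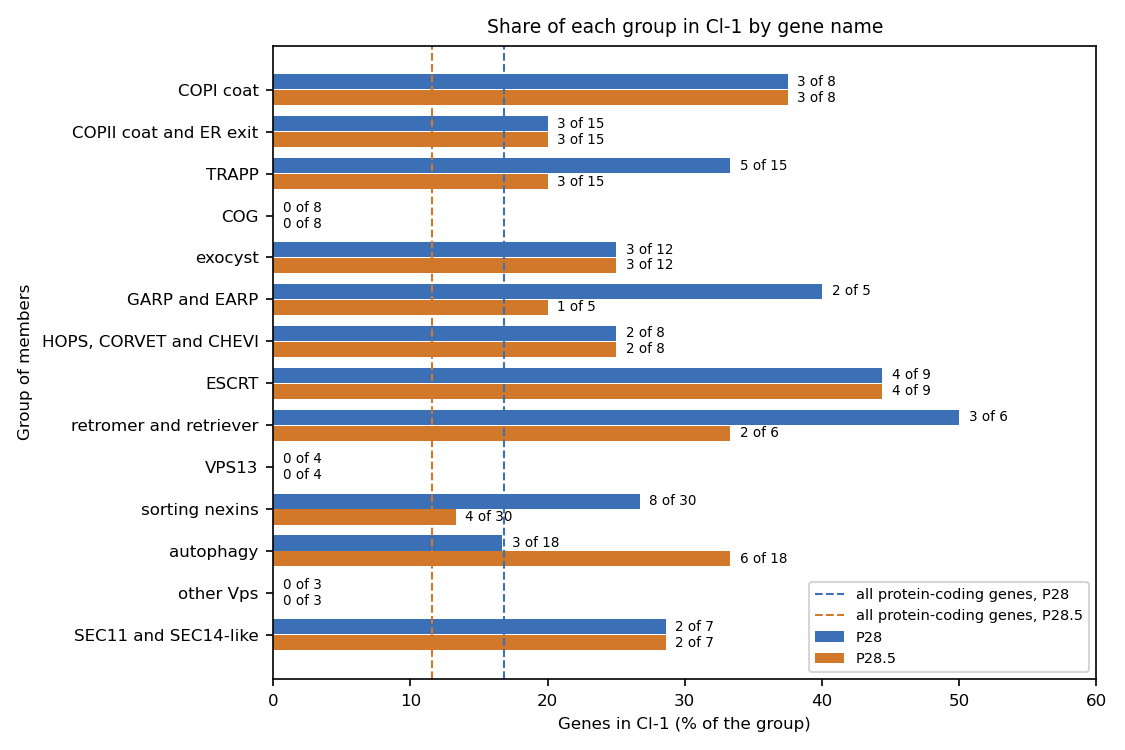
Share of each group's genes in Cl-1 by gene name (x axis, percent of the group) at P28 and P28.5, with the number of genes beside each bar; dashed lines are the shares of all protein-coding genes, 16.8% and 11.6%. Autophagy went from 3 to 6 of 18 genes, sorting nexins from 8 to 4 of 30, and COG, VPS13 and the other Vps genes stood at 0.

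Many of the genes shared their promoter region with a neighbour, 24 of the 45 listed ones included. Of the 148 genes, 50 (33.8%) had the 5′ end of another gene on the other strand within 1000 bp, beside 21.7% of all protein-coding genes. Of these 50, the P28 list held 20 (40.0%) and the P28.5 list 19 (38.0%), where the background was 28.4% and 24.2%. Of the other 98, 18 (18.4%) and 14 (14.3%) were listed, where it was 13.6% and 8.12%. Where the listed position lies between 2 such starts, the lists do not say which gene it belongs to.

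A set of 8 genes in neither list by name had a listed position within 500 bp of their start under a neighbour's name, and all 8 were on the minus strand. These made up 7.77% of the 103 unlisted genes, beside 4.43% of all unlisted protein-coding genes, and 12.3% of the 65 on the minus strand, beside 6.73%. At both ages the start was listed 150 bp away for Atg9a, the lipid scramblase of autophagy vesicles, under Ankzf1, and 76 bp away for Sec16a, the organiser of ER exit sites, under 0610009E02Rik. The same held for Trappc11 at 175 bp under Rwdd4a, Trappc13 at 308 bp under Trim23, Cog8 and Vps35. At P28 alone it held for Atg2b, 55 bp away under Gskip, and for Atg12, 152 bp away under Ap3s1.

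Counted by any listed position within 2000 bp of a start, whatever its name, 45 of the 148 genes were listed at P28, where 17.3% of all protein-coding genes were, and 40 at P28.5, where 14.8% were. Of these, 33 were listed at both ages, where 10.9% were. Plus-strand genes numbered 28 and 27, beside 25.0% and 20.9%, nearly as by name. Minus-strand genes numbered 17 and 13 of 75, beside 9.58% and 8.62%, up from 9 and 6 by name.

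The other 94 genes were absent by name and by any position within 2000 bp. Over the 91 of them on autosomes, the nearest listed position lay between 5315 and 3457625 bp away at P28, with a median of 75193 bp, and between 2100 and 4138540 bp away at P28.5, with a median of 129319 bp. The 3 X-linked genes, Atg4a, Snx12 and Trappc2, were among the unlisted. The nearest listed position on the X chromosome lay at least 17743425 bp from them at P28 and at least 2284782 bp at P28.5. The share of all X-linked genes in the lists was not counted, so the absence cannot be read as particular to these genes.

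The positions listed at P28 and P28.5 were largely the same for a gene present at both. Of the 26 such genes, 23 had the same positions at both ages, beside 82.5% of all protein-coding genes listed at both. The exceptions were Sec23ip, Vps37c and Atg4c. Over all genes listed at P28, 81.5% had a row within 2000 bp of their own start, and at P28.5 98.1% did, while the corresponding counts here were 35 of 38 and 33 of 33.

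The same pathways hold genes that the symbol rule does not reach, and 96 of these were taken as a list from gene function. The P28 list held 33 of them (34.4%) and the P28.5 list 32 (33.3%), again beside 16.8% and 11.6% of all protein-coding genes, with 22 at both ages, 11 at P28 alone, 10 at P28.5 alone and 53 in neither list. Strand and CpG content were not matched for this list. The same background shares apply to the classes of this list given below.

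Among 23 coat, adaptor and GTPase genes, 6 were listed at each age. Gbf1, which activates the COPI GTPase ARF1, the clathrin heavy chain gene Cltc, and the adaptor genes Ap1m1 and Ap2a1 were listed at both ages. Clta and Ap2s1 were listed at P28 alone, and Ap2m1 and Gga1 at P28.5 alone. Among 20 further ESCRT genes, the P28 list held 7 and the P28.5 list 8, with Hgs and Stam of ESCRT-0, Mvb12a of ESCRT-I and Chmp2a of ESCRT-III at both. Chmp2b, Chmp4c and Chmp6 were at P28 alone, and Chmp1a, Chmp3, Chmp5 and Ubap1 at P28.5 alone.

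Among 32 further autophagy genes, the P28 list held 10 and the P28.5 list 8, and the higher count at P28.5 seen in the ATG genes was not present in them. The ATG8 genes Map1lc3a and Gabarapl2, the receptors Nbr1 and Tax1bp1, and Wipi2, which recruits ATG16L1, were listed at both ages. Tfeb, Lamp1, Epg5, Gabarapl1 and Wdr45b were at P28 alone, and Map1lc3b, Gabarap and Nrbf2 at P28.5 alone. Among 21 tether and fusion genes, 10 were listed at each age. The 9 at both were Uso1, Golga2, Golga5, Gorasp2, Stx5a, Ykt6 and Napa of the Golgi and its fusion machinery, with Washc4 and Ccdc93 of the endosome. Gorasp1 was at P28 alone and Vipas39, the partner of VPS33B, at P28.5 alone.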

How the data were processed

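Spermatogenic cells of synchronised CD1 testes were profiled by CUT&RUN for ARID2 and BRG1 at P28 and P28.5, with 1 control sample at each age. Per the paper's methods and the submitters' processing notes, the authors trimmed reads with TrimGalore, aligned them to mm10 with Bowtie2, processed alignments with SAMtools, made control-normalised tracks with deepTools and csaw, averaged replicates with WiggleTools and clustered RefSeq TSSs by k-means. The deposited lists hold genomic positions and symbols of the ARID2-enriched cluster, with no score, count or signal. The RefSeq release is not given in the sources used here. Averaging pooled the replicates, so their agreement could not be checked from the lists, and the tracks of single samples were not used. The BRG1 and control samples entered no value here.

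Symbols were tied to protein-coding genes of the RefSeq annotation of GRCm38.p6, as written (3985 of 4095 symbols at P28, 2640 of 2707 at P28.5) or by a synonym that belonged to 1 gene (100 and 62). Distances run to the nearest annotated 5′ end. Shares have 95% Wilson intervals, which cover counting error only, and no test was run. Counting was checked on simulated lists. CpG groups are quintiles over all protein-coding genes, with the ratio taken at the gene's outermost annotated 5′ end. Promoter sequences came from RefSeq for 117 of the 148 genes. Those without an entry were Atg12, Atg16l1, Exoc3l, Sec11c, Sec14l4, Snx2, Snx9, Snx15, Snx16, Snx20, Snx24, Snx27, Snx31, Snx32, Trappc1, Trappc4, Trappc8, Trappc9, Vps11, Vps13b, Vps13c, Vps28, Vps33b, Vps35, Vps35l, Vps37a, Vps37b, Vps39, Vps51, Vps72 and Vps9d1. Python 3.11.15, scipy 1.17.1, matplotlib 3.10.9, samtools 1.23.1 and pysam 0.24.0 were used.

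The genes, their groups and the list of further pathway genes were chosen with earlier results of these data known. Every gene was named once by its place in the lists, and positions were given for the 6 genes with the most positions, those at P28.5 alone, those listed over 2000 bp from their start, those listed within 500 bp under another name, and complexes with genes of known testis function. Other positions were chosen after their values were seen.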

Additional observations from a re-analysis of the deposited data

How the results depend on the processing

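Genes were also counted with symbols matched as written, by any listed position within 2000 bp or within 500 bp of a 5′ end, by a position of their own name within 2000 bp, without X-linked genes, and without the 8 genes of other function. Of 64 counts so recomputed over 11 results, 60 stayed within 1.5 times the count by name. The other 4 concern minus-strand genes. By any position within 2000 bp their counts of 9 (P28) and 6 (P28.5) became 17 and 13 of 75, and within 500 bp 16 and 12, because this way of counting adds starts listed under a neighbour's name. The background on the minus strand moved from 7.61% and 2.86% to 9.58% and 8.62% with the 2000 bp rule. Over the 6 alternatives 35 to 45 genes were listed at P28 and 31 to 40 at P28.5, the 31 being of the 140 genes left without those of other function. No paired analysis was possible because the lists were made from averaged replicates, and for the same reason no replicate could be left out. The lists give no depth or signal at a TSS, so a gene just outside the cluster cannot be told apart from one without ARID2.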

Other observations

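Some paralogs that encode alternative subunits of the same complex differed in their place in Cl-1. These sets were chosen after their values were seen, because they differed. Other sets did not differ, such as Copz1 with Copz2, Sec31a with Sec31b, Exoc6 with Exoc6b and Vps13a to Vps13d, all in neither list. Sec23b was listed at both ages with 2 positions and Sec23a at neither. Of 4 Sec24 genes, Sec24c was listed at both ages and Sec24a, Sec24b and Sec24d at neither. Vps4a was listed at both ages and Vps4b at neither, Vps26b at both and Vps26a at neither, and Vps37a and Vps37c at both with Vps37b and Vps37d at neither. Copg1 was listed at both ages and Copg2 at P28 alone. Trappc6a was listed at both ages and Trappc6b at neither.

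In most of the sets that differed, the listed paralog was the one on the plus strand. Sec23b, Vps4a, Trappc6a, Vps37a, Vps37c and Copg1 are plus-strand genes, and Sec23a, Vps4b, Trappc6b, Vps37b, Vps37d and Copg2 are minus-strand genes. The Vps26 pair differed with both genes on the minus strand, and Sec24c and Sec24d differed with both on the plus strand, at CpG ratios of 0.748 and 0.192. The part of strand in the other differences was not tested.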
